A study of Mus musculus with 9 samples.

Results

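The aldo-keto reductases described here were the 10 genes whose symbols in the deposited RNA-seq table are Akr1a1, Akr1b3, Akr1b7, Akr1b8, Akr1b10, Akr1c12, Akr1c13, Akr1c14, Akr1c19 and Akr7a5, of 54146 genes listed. RNA-seq was performed on colonic mucosa of 9 C57BL/6J mice at 15 wk of age, to ask which genes differ when p16 epimutation is added to an Apc mutation. The control group was 5 ApcMin/+ mice, of which 2 were female and 3 male. The other group was 4 ApcMin/+; p16cis/cis mice, of which 3 were female and 1 male. All 9 mice therefore carried ApcMin, a germline truncating mutation of 1 Apc allele that causes intestinal polyps, and neither wild-type mice nor mice with p16cis alone were among these samples. The p16cis allele is a germline knock-in of a DNA element that attracts methylation to the p16 promoter, carried here on both chromosomes and in every cell of the body, so nothing limits it to the colon. The RNA came from crypts of the mucosa, a mixture of cell types, and in such bulk samples fewer cells of a type and less RNA per cell cannot be told apart.

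Aldo-keto reductases are soluble enzymes that use NADPH to reduce aldehydes and ketones to alcohols. The Akr1b enzymes include aldose reductase and act on glucose, retinaldehyde and aldehydes from lipid peroxidation. The Akr1c enzymes are hydroxysteroid and dihydrodiol dehydrogenases that handle steroids, prostaglandins and polycyclic compounds. In the intestine such enzymes are part of the defense of the epithelium against reactive carbonyls from food, microbes and lipids.

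The libraries held 13523500 to 17885918 reads on genes, recovered from the deposited values. All 4 ApcMin/+; p16cis/cis libraries were smaller (13523500 to 14900228 reads) than all 5 ApcMin/+ libraries (15745098 to 17885918 reads). Mitochondrial genes took 19.3% to 29.8% of the reads in ApcMin/+; p16cis/cis mice and 8.74% to 15.6% in ApcMin/+ mice, without overlap. Cdkn2a, the gene of p16, had 0 reads in all 9 mice, so the genotype labels could not be checked from it. All 16 colonic epithelium markers were measured, with a summed normalized count of 432484 to 745102 in ApcMin/+ mice and 436523 to 502411 in ApcMin/+; p16cis/cis mice.

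In the mucosa with p16 epimutation the Akr1c genes were lower and a pair of Akr1b genes were higher. By limma with Benjamini-Hochberg adjustment over 14410 genes, 6 of the 10 aldo-keto reductases had an adjusted p under 0.05, against 16.9% of all genes tested. Akr1c12, Akr1c13, Akr1c14 and Akr1c19 fell, where 8.75% of all genes fell, and Akr1b3 and Akr1b10 rose, where 8.14% of all genes rose. All 10 genes passed the filter on low values (10 or more normalized counts in 4 or more mice). The median log2 fold change (ApcMin/+; p16cis/cis minus ApcMin/+) was -0.83 over the 4 Akr1c genes, 0.63 over the 4 Akr1b genes and -0.13 over all 10, beside -0.0041 over all genes tested. None of the 10 also changed by more than 2-fold (0 genes by limma, by edgeR and by DESeq2, against 3.48% of all genes by limma, 1.64% lower and 1.83% higher), and 6 had an unadjusted p under 0.05, against 33.2% of all genes. In 4 genes the genotypes did not overlap, 3 of them lower and 1 higher, against 16.2% of all genes without overlap (8.95% lower and 7.24% higher).

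**Figure D1:**
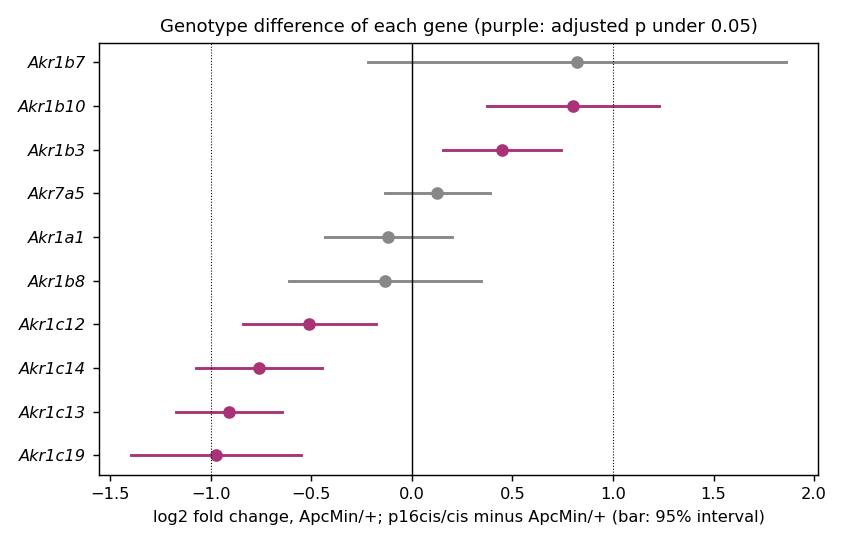
Log2 fold change (ApcMin/+; p16cis/cis minus ApcMin/+, x axis) of each of the 10 aldo-keto reductases, with 95% intervals from limma. The 4 Akr1c genes lie between -0.97 and -0.51, Akr1b3 and Akr1b10 lie at 0.45 and 0.80, and the intervals of the other 4 genes include 0.

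The 4 Akr1c genes lie together on chromosome 13 of GRCm38 within 230.4 kb, from 4049011 to 4279433, in the order Akr1c14, Akr1c13, Akr1c19 and Akr1c12, the last on the minus strand. The 4 Akr1b genes lie on chromosome 6 within 120.7 kb, from 34302434 to 34423142, in the order Akr1b3 (minus strand), Akr1b8, Akr1b10 and Akr1b7. Akr1a1 and Akr7a5 stand alone on chromosome 4, from 116636510 to 116651680 on the minus strand and from 139310744 to 139318426 on the plus strand. The coding sequences of Akr1c12 and Akr1c13 were 96.18% identical, and 28.6% of the 50-base stretches of the Akr1c13 transcript also occur in Akr1c12, so the authors' counting could split reads between them. The other pairs of Akr1c genes were 72.34% to 77.81% identical. Akr1b7, Akr1b8 and Akr1b10 were 84.81% to 89.24% identical to each other, and Akr1b3 was 71.84% to 72.68% identical to them.

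The RefSeq promoters (250 bases before to 50 after the start, GRCm38.p6) of the 4 genes that fell and of Akr1b10, which rose without overlap, are shown because these genes moved within their clusters. A promoter was found for 9 of the 10 members, all but Akr1b3. The windows of Akr1c14 and Akr1c19 lie inside the GENCODE bounds of these genes, at the RefSeq start, and each gene has a further annotated transcript that starts upstream, so their matches and identities belong to that 1 start. Capitals mark the unit TTAANCATTAG (N is any base, read on both strands), the word of 11 bases with 1 free position that occurs most often in the Akr1c13 window, a rule set after these sequences had been read.
Akr1c13 (chr13:4190937-4191236, plus strand): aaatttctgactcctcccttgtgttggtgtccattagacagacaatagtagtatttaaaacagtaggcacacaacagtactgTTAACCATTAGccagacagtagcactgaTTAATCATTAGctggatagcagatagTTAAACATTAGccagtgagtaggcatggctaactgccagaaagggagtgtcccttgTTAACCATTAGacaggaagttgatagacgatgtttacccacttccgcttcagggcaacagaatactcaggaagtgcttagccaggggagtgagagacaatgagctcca
Akr1c12 (chr13:4279350-4279649, minus strand): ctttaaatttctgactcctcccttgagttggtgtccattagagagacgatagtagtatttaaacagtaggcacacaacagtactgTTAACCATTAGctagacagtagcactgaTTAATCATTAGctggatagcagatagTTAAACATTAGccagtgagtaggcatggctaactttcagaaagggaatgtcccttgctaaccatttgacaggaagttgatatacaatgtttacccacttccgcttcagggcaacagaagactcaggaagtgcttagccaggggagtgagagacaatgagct
Akr1c19 (chr13:4233490-4233789, plus strand): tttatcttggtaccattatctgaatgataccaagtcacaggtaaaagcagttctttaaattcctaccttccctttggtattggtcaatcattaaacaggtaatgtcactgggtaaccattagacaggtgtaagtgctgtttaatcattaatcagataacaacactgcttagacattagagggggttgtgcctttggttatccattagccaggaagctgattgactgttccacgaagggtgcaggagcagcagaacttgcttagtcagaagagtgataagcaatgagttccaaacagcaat
Akr1c14 (chr13:4059341-4059640, plus strand): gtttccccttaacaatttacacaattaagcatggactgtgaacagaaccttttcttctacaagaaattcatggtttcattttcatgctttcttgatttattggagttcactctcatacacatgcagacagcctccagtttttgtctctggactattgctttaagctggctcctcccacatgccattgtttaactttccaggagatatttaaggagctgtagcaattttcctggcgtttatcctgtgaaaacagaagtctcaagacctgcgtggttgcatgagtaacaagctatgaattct
Akr1b10 (chr6:34383997-34384296, plus strand): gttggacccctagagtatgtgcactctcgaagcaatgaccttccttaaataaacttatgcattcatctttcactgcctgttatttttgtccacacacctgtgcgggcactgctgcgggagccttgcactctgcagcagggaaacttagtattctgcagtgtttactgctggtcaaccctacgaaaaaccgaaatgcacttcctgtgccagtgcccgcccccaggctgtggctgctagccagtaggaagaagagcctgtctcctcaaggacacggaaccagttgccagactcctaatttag

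The promoters of Akr1c12 and Akr1c13 were 94.67% identical over 300 bases, although the genes are transcribed in opposite directions. The unit occurs 4 times in the Akr1c13 window, 3 times in that of Akr1c12 and not in the other 3 printed. Of 32851 mouse promoters of the same length 12 (0.0365%) hold it, and 2 (0.00609%), Akr1c12 and Akr1c13 themselves, hold it 3 or more times. Only exact matches were counted. The Akr1c19 window, without an exact match, holds words 1 base away from the unit, such as ttatccattag and ttagacattag. Such near matches were not counted in any promoter, so the counts do not show that the repeat is absent from Akr1c19. Its window was 59.67% identical to that of Akr1c12 and 62% to that of Akr1c13. The Akr1c14 window was 47% to 50.33% identical to those of the other Akr1c genes, about the level of Akr1b10 against the Akr1c promoters (50% to 52%). The core TGACNNNGC of the antioxidant response element, read on both strands, occurs 1 time in the Akr1c19 window and in 12.4% of all promoters. The nuclear receptor site AGGTCA occurs in the windows of Akr1b7, Akr1b10 and Akr7a5 and in 16.3% of all promoters. These are matches of letters in a short window and are not measured binding.

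Akr1c13, one of the dihydrodiol and hydroxysteroid dehydrogenases, had the smallest p among the 10 genes. Its normalized counts were 2616, 3162, 3181, 2996 and 2194 in ApcMin/+ mice and 1543, 1375, 1605 and 1454 in ApcMin/+; p16cis/cis mice. Every mouse with p16 epimutation lay below every control, and the 4 values lay close together (1494 ± 101, SD, n = 4) while the controls spread more widely (2830 ± 422, SD, n = 5). Akr1c13 (ENSMUSG00000021213.12, chromosome 13, 4191150 to 4205596) fell by 0.91 on the log2 scale (SE 0.12, adjusted p = 0.00195 by limma). With Bonferroni adjustment over all genes its p was 0.0972.

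Akr1c19 (ENSMUSG00000071551.13, chromosome 13, 4228700 to 4252843) had the largest fold change of the 10 genes. ApcMin/+ mice had normalized counts of 3821, 3949.8, 3253, 4674 and 2865, and ApcMin/+; p16cis/cis mice of 1703, 2552, 2165 and 1286. The lowest control stood above the highest mouse with p16 epimutation, by a narrower margin than the group means of 3712 ± 693 (SD, n = 5) and 1927 ± 550 (SD, n = 4) show. Akr1c19 fell by 0.97 on the log2 scale (SE 0.19, adjusted p = 0.00872 by limma), which left 51.0% of the control level.

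Akr1c14 encodes the hydroxysteroid dehydrogenase that makes neurosteroids from reduced progesterone. Its normalized counts were 2806, 4033, 3888, 4507 and 3732 in ApcMin/+ mice (3793 ± 623, SD, n = 5). They were 2371, 1898, 2634 and 2032 in ApcMin/+; p16cis/cis mice (2234 ± 333, SD, n = 4). The groups did not overlap, with control replicate 1 the lowest of its group and close to the highest value of the other. Akr1c14 (ENSMUSG00000033715.15, chromosome 13, 4049011 to 4090688) fell by 0.76 on the log2 scale (SE 0.14, adjusted p = 0.00725 by limma). The falls of Akr1c13, Akr1c14 and Akr1c19 had an adjusted p under 0.05 in 9 of 9 fits with 1 mouse left out.

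Akr1c12, the near copy of Akr1c13, had a smaller fold change. The log2 ratio of this pair did not pass between the genotypes (exact permutation test, adjusted p = 0.238). The 5 controls had normalized counts of 2086, 2215, 2296, 2944 and 1726 (2253 ± 443, SD, n = 5). They were 1431, 1351, 1934 and 1577.5 in ApcMin/+; p16cis/cis mice (1573 ± 258, SD, n = 4). Replicate 3 with p16 epimutation lay above control replicate 5, so the groups overlapped. Akr1c12 (ENSMUSG00000021211.4, chromosome 13, 4268176 to 4279433) fell by 0.51 on the log2 scale (SE 0.15, adjusted p = 0.039 by limma). The adjusted p of Akr1c12 stayed under 0.05 without ApcMin/+ replicate 4 (0.0405) or 5 (0.0219) or ApcMin/+; p16cis/cis replicate 3 (0.0246), and was 0.058 to 0.115 without any one of the other 6 mice.

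**Figure D2:**
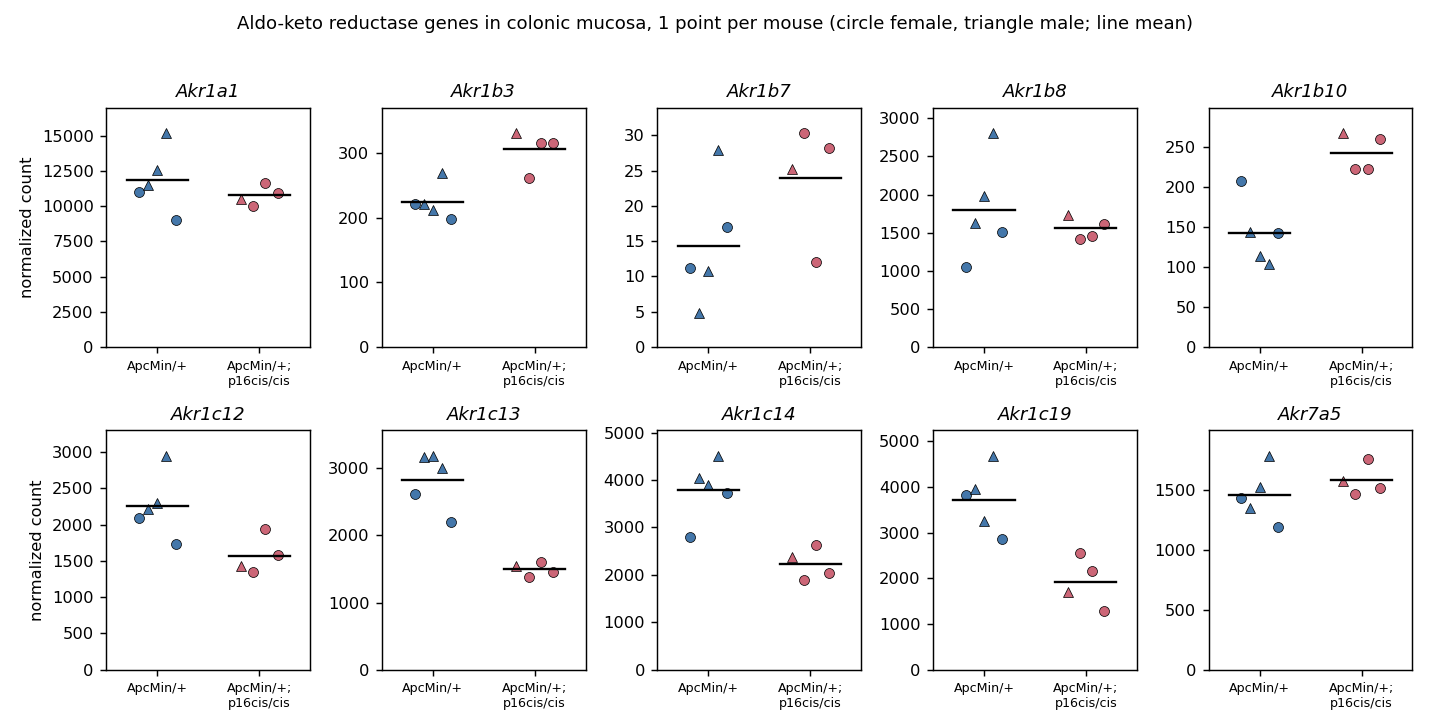
Normalized count of each of the 10 aldo-keto reductases in each mouse, in 1 panel a gene, with circles for females, triangles for males and lines for group means. Akr1c13, Akr1c14 and Akr1c19 show every ApcMin/+; p16cis/cis mouse below every ApcMin/+ mouse, and Akr1b10 shows every one above.

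Akr1b10, whose human namesake reduces retinaldehyde and lipid aldehydes, went the other way at a much lower level. The controls had normalized counts of 208, 145, 114, 104 and 143, against 268, 223, 222 and 260 in ApcMin/+; p16cis/cis mice. Every mouse with p16 epimutation lay above every control, and control replicate 1 stood nearest to them. Akr1b10 (ENSMUSG00000061758.13, chromosome 6, 34384218 to 34396950) rose by 0.80 on the log2 scale (SE 0.20, adjusted p = 0.0189 by limma), from 143 ± 40.3 (SD, n = 5) to 243 ± 23.9 (SD, n = 4). The adjusted p of Akr1b10 was 0.0507 without ApcMin/+ replicate 3 and 0.0577 without ApcMin/+; p16cis/cis replicate 4, and under 0.05 without any other mouse.

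Akr1b3 is the mouse aldose reductase, the first enzyme of the polyol pathway. The values in normalized counts were 221, 222, 212, 269 and 199 in ApcMin/+ mice (224 ± 26.8, SD, n = 5). They were 331, 262, 316 and 316 in ApcMin/+; p16cis/cis mice (306 ± 30.5, SD, n = 4). The groups overlapped through control replicate 4 and replicate 2 with p16 epimutation. Akr1b3 (ENSMUSG00000001642.18, chromosome 6, 34302434 to 34317478) rose by 0.45 on the log2 scale (SE 0.14, adjusted p = 0.0411 by limma). Its adjusted p stayed under 0.05 without ApcMin/+ replicate 4 (0.0149) or ApcMin/+; p16cis/cis replicate 2 (0.0473), and was 0.0733 to 0.1003 without any one of the other 7 mice. Of the 50-base stretches of its transcript 86.2% occur in other genes too, 82.4% in an unconfirmed locus on chromosome 1 (RP23-453N3.4). The normalized count of that locus was 0 to 4.54, so few reads were assigned to it. How shared reads were assigned was not tested.

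Akr1b8, a growth factor regulated relative of Akr1b10, was the most abundant Akr1b gene and did not pass the test. Its normalized counts were 1054.5, 1621, 1985, 2805 and 1503 in ApcMin/+ mice and 1733, 1416, 1461 and 1617 in ApcMin/+; p16cis/cis mice. The controls spread on both sides of the other group, with replicate 1 below and replicates 3 and 4 above all 4 of its mice. The log2 fold change of Akr1b8 (ENSMUSG00000029762.6, chromosome 6, 34354119 to 34368463) was -0.13 (95% interval -0.61 to 0.34, adjusted p = 0.709 by limma). Without ApcMin/+ replicate 4 it was 0.046.

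Akr1b7, first known from the vas deferens, was near the lower end of what was measured, at 14.3 ± 8.77 (SD, n = 5) in controls and 23.9 ± 8.22 (SD, n = 4) with p16 epimutation. Its counts came from 5 to 22 reads a mouse, and its log2 fold change of 0.82 had a 95% interval from -0.22 to 1.86 (adjusted p = 0.253 by limma), so a difference was not detected. Whether depth or the spread between mice limited this was not tested. A pseudogene that overlaps it on the other strand and holds 13.3% of its 50-base stretches (RP23-83K15.7) was at 0 in all 9 mice.

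Akr1a1, the aldehyde reductase that in mice also serves vitamin C synthesis, was the most abundant member. Normalized counts averaged 11848 ± 2266 (SD, n = 5) in controls and 10785 ± 708 (SD, n = 4) with p16 epimutation, and the log2 fold change was -0.12 (95% interval -0.43 to 0.20, adjusted p = 0.612 by limma). Akr7a5, which reduces succinic semialdehyde and aflatoxin dialdehyde, was at 1455 ± 219 (SD, n = 5) and 1578 ± 128 (SD, n = 4). Its log2 fold change was 0.13 (95% interval -0.13 to 0.39, adjusted p = 0.4995 by limma). The groups overlapped for both genes.

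Per kilobase of transcript, the level in ApcMin/+ mice ran from 8343 normalized counts for Akr1a1 through 2989 for Akr1c19, 2242 for Akr1c13, 1787 for Akr1c12, 1557 for Akr1c14, 1321 for Akr1b8 and 1130 for Akr7a5. Akr1b3, Akr1b10 and Akr1b7 followed at 162, 104 and 11.2 normalized counts per kilobase. In ApcMin/+; p16cis/cis mice Akr1c19 was at 1551, Akr1c12 at 1248, Akr7a5 at 1225, Akr1c13 at 1184, Akr1b8 at 1146 and Akr1c14 at 917 normalized counts per kilobase. The order depends on the transcript used. With the longest transcripts of Akr1c19 (5832 in place of 1242 bases) and Akr1c14 (3183 in place of 2436 bases), their levels in ApcMin/+ mice were 637 and 1192 normalized counts per kilobase, both below Akr1b8.

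Summed over the 4 Akr1c genes, the level was 12589 ± 1795 (SD, n = 5) normalized counts in controls and 42.6% lower, 7228 ± 825 (SD, n = 4), with p16 epimutation. The 4 Akr1b genes summed to 2175 ± 648 and 2130 ± 194 (SD), which differed by less than the SD of either group. The Akr1c genes made up 42.8% to 47.4% of the summed count of the 10 genes in ApcMin/+ mice and 30.1% to 35.1% in ApcMin/+; p16cis/cis mice. Akr1a1, which did not pass the test, made up 39.9% to 43.5% and 48.6% to 52.1%. Of all reads outside mitochondrial genes, the 10 genes took 0.148% to 0.199% in ApcMin/+ mice and 0.129% to 0.142% in ApcMin/+; p16cis/cis mice, so the order of the groups was the same with those reads left out.

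**Figure D3:**
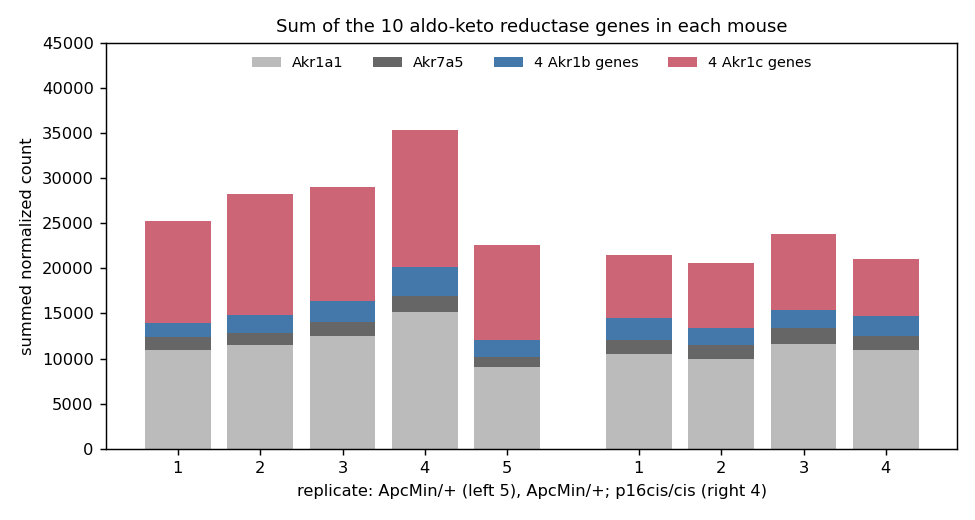
Summed normalized count of the 10 aldo-keto reductases in each mouse (y axis), stacked by Akr1a1, Akr7a5, the 4 Akr1b genes and the 4 Akr1c genes. The Akr1c part sums to 12589 on average in ApcMin/+ mice and to 7228 in ApcMin/+; p16cis/cis mice.

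Whether genes of 1 cluster moved unequally was tested by the log2 ratio of each pair within each mouse (12 pairs, two-sided exact permutation test, smallest possible p 0.00794). With so few mice 1 unequal pair alone could not have an adjusted p below 0.0952. No pair had an adjusted p under 0.05, 2 had an unadjusted p under 0.05, and the smallest adjusted p was 0.238. The log2 ratio of Akr1c12 to Akr1c13 was -0.34 ± 0.19 (SD) in ApcMin/+ mice and 0.06 ± 0.17 (SD) in ApcMin/+; p16cis/cis mice, a difference of 0.40 (95% interval 0.11 to 0.68, exact permutation p = 0.0238, adjusted p = 0.238). The log2 ratio of Akr1b3 to Akr1b8 differed by 0.58 (95% interval 0.05 to 1.07, exact permutation p = 0.0397, adjusted p = 0.238). Akr1b10 passed the test between the genotypes and Akr1b8 did not, but the difference of their log2 ratio, -0.94, had a 95% interval from -2.05 to 0.11 (exact permutation p = 0.111, adjusted p = 0.267). That ratio of Akr1b8 to Akr1b10 was 2.34, 3.48, 4.11, 4.74 and 3.38 in the 5 ApcMin/+ mice and 2.69, 2.66, 2.71 and 2.63 in the 4 ApcMin/+; p16cis/cis mice. The controls thus covered a wide range on the log2 scale, and the mice with p16 epimutation lay inside it and close together.

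**Figure D4:**
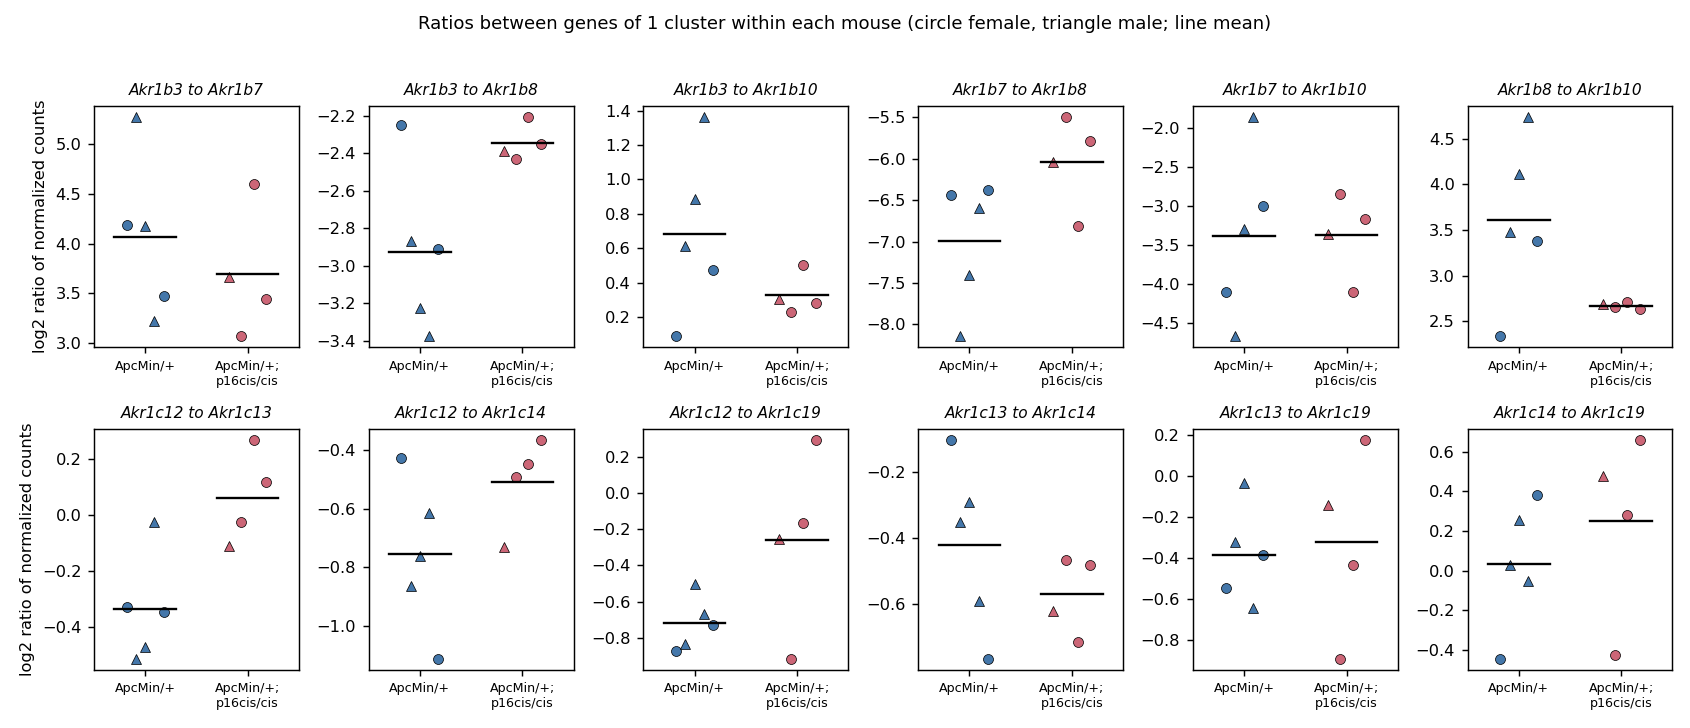
Log2 ratio of pairs of Akr1b genes and of Akr1c genes within each mouse (y axis), with circles for females, triangles for males and lines for group means. The ratio of Akr1b8 to Akr1b10 runs from 2.34 to 4.74 in ApcMin/+ mice and from 2.63 to 2.71 in ApcMin/+; p16cis/cis mice.

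The sexes were unequally spread over the groups. In ApcMin/+ mice all 3 males lay above both females for 5 of the 10 genes, Akr1a1, Akr1b8, Akr1c12, Akr1c13 and Akr1c14, and below both for 0 genes. This pattern was not tested, and the share of all genes with such an order is not given here. It is therefore not read as a result about these genes. Akr1c13 was 2194 to 2616 in control females and 2996 to 3181 in control males, against 1375 to 1605 in females and 1543 in the male with p16 epimutation. Among females alone the groups did not overlap for 2 genes that overlapped over all 9 mice, Akr1b3 (199 to 221 against 262 to 316) and Akr7a5 (1192 to 1434 against 1461 to 1757), each higher with p16 epimutation. Neither passed in females only (adjusted p = 0.158 for Akr1b3 and 0.306 for Akr7a5 by limma). So few mice separate easily, and the share of all genes that do so among females is not given here. With sex as a covariate in limma, the adjusted p was 0.00615 for Akr1c13, 0.0191 for Akr1c14 and 0.0239 for Akr1c19, but 0.0506 for Akr1b10, 0.0506 for Akr1b3 and 0.0961 for Akr1c12, in a fit where 9.97% of all genes had an adjusted p under 0.05. In females only (2 against 3), Akr1c13 had an adjusted p of 0.0308 by limma and was the 1 member below 0.05, against 6.23% of all genes.

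The higher mitochondrial share in ApcMin/+; p16cis/cis mice separated the genotypes in full, so the effects of that share and of genotype cannot be told apart. With that share as a covariate, limma gave 0 members and 0 of all 14410 genes with an adjusted p under 0.05 (2 members and 798 genes at an unadjusted p under 0.05), and a log2 fold change of -0.48 for Akr1c13, -0.19 for Akr1c14, -1.22 for Akr1c19, -0.16 for Akr1c12, 0.51 for Akr1b10 and 0.74 for Akr1b3. Among the marker lists, 1 of 16 colonic epithelium markers fell (Slc26a3, the chloride exchanger of mature colonocytes, with 11 of 16 estimates below 0 and a median log2 fold change of -0.21) and 1 of 7 measured crypt base and cycling markers rose (Mki67, with 6 of 7 estimates above 0 and a median of 0.24), with a summed count of 5848 to 9681 in ApcMin/+ mice and 9401 to 12366 in ApcMin/+; p16cis/cis mice. Of 8 goblet cell markers 1 rose (Spink4) and 7 of 8 estimates were above 0 (median 0.26), with sums of 287338 to 439645 and 304837 to 586497. Of 8 enteroendocrine and tuft markers 2 fell (Chga and Chgb) while 5 of the 8 estimates were above 0 (median log2 fold change 0.31), with sums of 6367 to 9603 and 7172 to 9330.3. Small intestine and Paneth markers fell in 2 of 4 measured genes (Sis and Apob) and 3 of 4 estimates were below 0 (median -0.96), with sums of 2352 to 3573 and 822 to 1477. These marker counts are of genes with an adjusted p under 0.05, which 16.9% of all genes had.

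Markers of cells outside the epithelium were low in both groups. Their counts that passed stand beside the same 16.9% of all genes. Immune markers summed to 149 to 1725 in ApcMin/+ mice and 319 to 540.5 in ApcMin/+; p16cis/cis mice, with 1 of 9 lower (Jchain) and 7 of 9 estimates below 0 (median log2 fold change -0.27). Stromal and vessel markers summed to 297 to 1006 and 179 to 357, with 1 of 6 passing (Col3a1, lower) and all 6 estimates below 0 (median -0.84). Smooth muscle markers summed to 41.9 to 357 and 37.6 to 113, with 0 of 5 passing by limma (1, Tagln, at an unadjusted p under 0.05) and all 5 estimates below 0 (median -1.47). Adipocyte markers summed to 135 to 451 and 55.6 to 90.2, with 1 of 2 passing (Cidec, lower), both estimates below 0 (median -1.95) and Lep at 0 in all mice. The part of these cell types in the differences of the aldo-keto reductases was not tested.

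Inside the Akr1c cluster, between Akr1c14 and Akr1c13, lies Akr1c18, the enzyme that inactivates progesterone in the ovary. It averaged 50.1 ± 11.8 (SD, n = 5) normalized counts in controls and 31.9 ± 12.1 (SD, n = 4) with p16 epimutation, and the log2 fold change was -0.68 (95% interval -1.34 to -0.01, adjusted p = 0.143 by limma). The liver enzymes Akr1c6, Akr1c20 and Akr1d1 had normalized counts of at most 2.27 in any mouse, Akr1c21 of at most 11.2, and Akr1cl was at 0 in all 9. Akr1e1, the anhydrofructose reductase further along the chromosome, was at 1078 ± 308 (SD, n = 5) and 1188 ± 87.7 (SD, n = 4) normalized counts, and its log2 fold change was 0.18 (adjusted p = 0.491 by limma). Without ApcMin/+ replicate 4, whose Akr1e1 count of 1625 stood apart, the log2 fold change was 0.33 (adjusted p = 0.0264 by limma). In that fit 24.2% of all genes had an adjusted p under 0.05. Kcnab2 and Kcnab3, potassium channel subunits of the same fold, had log2 fold changes of -0.80 (adjusted p = 0.271 by limma) and -0.05 (adjusted p = 0.96). Of these 4 other family genes tested, 0 passed by limma and 1, Akr1c18, had an unadjusted p under 0.05.

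Within 500 kb of the Akr1c cluster, 1 of 10 tested genes that are not members had an adjusted p under 0.05, and within 500 kb of the Akr1b cluster 1 of 8, Tmem140, which had a log2 fold change of -0.98. The former was the unconfirmed locus RP23-262I17.3, with a log2 fold change of -1.51. Both counts are beside the 16.9% of all genes with such a p. The tested genes nearest to the Akr1c cluster on its outer side, Tubal3 and Net1, had log2 fold changes of -0.18 and 0.04, and Slc35b4 and Bpgm on either side of the Akr1b cluster had 0.06 and -0.10.

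**Figure D5:**
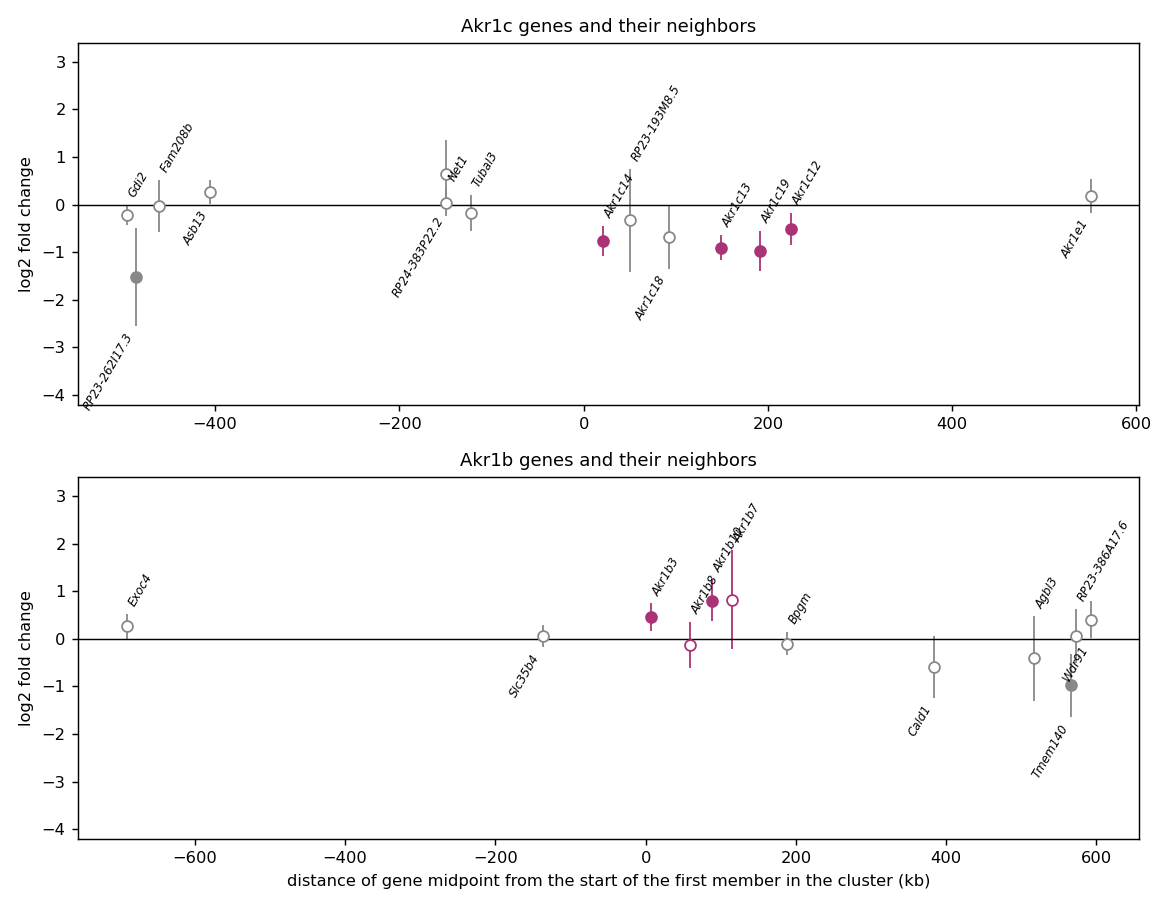
Log2 fold change (y axis) of the tested genes in and within 500 kb of the Akr1c cluster (upper panel) and the Akr1b cluster (lower panel), by distance in kb from the start of the first member (x axis). Colored points are members, gray points are other genes, filled points have an adjusted p under 0.05 and bars are 95% intervals. All 4 Akr1c members are filled and lie below 0.

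Other enzymes that act on the same kinds of substrate were taken from lists. The counts of each list stand beside the 8.75% of all genes that fell and 8.14% that rose with an adjusted p under 0.05. Of 18 tested carbonyl reductases 2 fell and 1 rose, with a median log2 fold change of -0.08. Rdh14, a retinol dehydrogenase, fell by 0.74 and Ptgr2, a prostaglandin reductase, fell by 0.66 on the log2 scale. Cbr2, a carbonyl reductase, rose by 1.01 on the same scale, with normalized counts of 303 to 556 in ApcMin/+ mice and 545.5 to 1072 in ApcMin/+; p16cis/cis mice. Of 19 tested alcohol and aldehyde dehydrogenases 4 fell and 1 rose (median -0.22). Among these Aldh1a1, which oxidizes retinaldehyde to retinoic acid, fell by 1.93 and its relative Aldh1a7 fell by 1.23 on the log2 scale.

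In the polyol and glyoxalase list Akr1b3 itself was the 1 gene of 7 tested that passed (median 0.002), beside 16.9% of all genes. Of 10 genes that supply NADPH, the cofactor of the family, 1 fell and 0 rose (median -0.26). Of 14 prostaglandin and steroid genes 2 fell and 0 rose (median -0.46). These were Hsd17b4, a peroxisomal enzyme of fatty acid breakdown, which fell by 0.98 from 2362 ± 353 (SD, n = 5) to 1187 ± 74.8 (SD, n = 4), and Hpgd, which inactivates prostaglandins and fell by 0.84 from 4938 ± 746 (SD, n = 5) to 2745 ± 173 (SD, n = 4).

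Among 16 tested regulators known to act on genes of this kind 3 fell and 2 rose (median -0.22), beside 8.75% and 8.14% of all genes. Nfe2l2, which encodes the oxidative stress factor Nrf2, fell by 0.48 on the log2 scale, from 5973 ± 346 (SD, n = 5) to 4313 ± 623 (SD, n = 4). Ppara, the fatty acid receptor, fell by 1.15, from 220 ± 52.8 (SD, n = 5) to 101 ± 31.9 (SD, n = 4). Nr1h2, an oxysterol receptor, rose by 0.60 and Ppard rose by 0.47 on the log2 scale. Nr1i2, the xenobiotic receptor, was at 0.06 (adjusted p = 0.774 by limma), the bile acid receptor Nr1h4 at -0.51 (adjusted p = 0.0999 by limma) and Hnf4a at -0.0028 (adjusted p = 0.99 by limma) on the log2 scale.

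Of 19 Nrf2 targets outside the family 5 fell and 3 rose (median -0.29), beside 8.75% and 8.14% of all genes, so the list did not move one way. Gclm, the modifier subunit of glutathione synthesis, fell by 0.66 on the log2 scale, from 2484 ± 108 (SD, n = 5) to 1578 ± 128 (SD, n = 4). The transporter Abcc3 fell by 0.56. Gpx2, the glutathione peroxidase of the gut epithelium, rose by 1.03, from 7078 ± 1431 (SD, n = 5) to 14476 ± 3127 (SD, n = 4), and Gstm1, a glutathione transferase, rose by 0.58 on the log2 scale.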

How the data were processed

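RNA-seq of colonic mucosa was measured in 9 mice, 5 ApcMin/+ and 4 ApcMin/+; p16cis/cis, each mouse being a replicate of its own. The deposited table holds signal values that the authors made, read counts scaled by the size factor of the library (normalized counts). According to the methods, libraries were aligned with BOWTIE2, counted with RSEM and compared with DESeq2, and the genome build of the RNA-seq is not given in the sources used here. Of 54146 gene identifiers 54079 were in GENCODE M21 (GRCm38), which gave the coordinates and transcript lengths. Dividing by the value of 1 read gave whole reads (within 0.01) for 100% of positive values, 13523500 to 17885918 a mouse.

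Genotypes were compared with limma 3.58.1 (R 4.3.3, trended variances, genotype alone in the model) on log2(normalized count + 1). It covered the 14410 genes that reached 10 in 4 or more mice. On this scale the change of low genes is understated. P-values were adjusted by Benjamini-Hochberg. Count tests on the recovered reads with edgeR 4.0.16 and DESeq2 1.42.0, other filters, pseudocounts and scalings, sex as a covariate, females only, a replicate block and each mouse left out were alternatives. The fit with the mitochondrial share was chosen after seeing the data. The limma fit with genotype alone was also tested on simulated data, and the alternatives were not.

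The members and gene lists were chosen with earlier results of these data known. The genes named are all members, the other family genes tested, cluster neighbors, and list genes with an adjusted p under 0.05 (at most 4 a direction) plus 5 fixed regulators. The marker genes were fixed as lists, and the neighbors outside each cluster and list genes that passed in 9 of 9 fits with 1 mouse left out were picked for the text after their values were seen. Promoter windows came from RefSeq, the repeated unit came from the Akr1c13 window, and the other motifs were set as fixed letters. P-values measure the spread between these mice, and whether litters were shared was not given.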

Additional observations from a re-analysis of the deposited data

Results flagged for a closer look

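Among 56 groups of mice checked for single values (members, other family genes tested, ratios of members, and the shares of member and mitochondrial reads), 1 held a mouse far from the others. Akr1e1 was at a normalized count of 1625 in ApcMin/+ replicate 4, while the other 4 ApcMin/+ mice lay between 874 and 988. Chance gives about 1 in 20 such groups, or 2.8 of 56, so a single one is below that number. The log2 fold change of Akr1e1 was 0.18 (adjusted p = 0.491 by limma) with all mice and 0.33 (adjusted p = 0.0264 by limma) without that mouse. Of all genes, 16.9% had an adjusted p under 0.05 with all mice and 24.2% without that mouse.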

How the results depend on the processing

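The number of all genes called (adjusted p under 0.05 and fold change over 2) was 501, with 331 when sex was a covariate, 286 in females only, 0 with the mitochondrial share as a covariate, 2434 without the fold threshold, 19 with Bonferroni adjustment and 281 to 755 with 1 mouse left out (without ApcMin/+; p16cis/cis replicate 4 and without ApcMin/+ replicate 4). Called members were 0, with 6 without the fold threshold and 0 to 1 with 1 mouse left out (1 without ApcMin/+ replicate 3 or 5 or ApcMin/+; p16cis/cis replicate 2 or 3). Members with an adjusted p under 0.05 were 6, with 3 when sex was a covariate, 1 in females only, 0 with the mitochondrial share, 0 with Bonferroni adjustment, 4 without a filter and 3 to 6 with 1 mouse left out (3 without ApcMin/+ replicate 3 or ApcMin/+; p16cis/cis replicate 4). The share of all genes with such a p moved too, from 16.9% to 9.97% with sex, 6.23% in females only and 6.41% without a filter. It was 8.93% without ApcMin/+ replicate 3, 8.21% without ApcMin/+; p16cis/cis replicate 4 and 24.2% without ApcMin/+ replicate 4. The ratios of members had too few mice for 1 pair alone to pass, so their 0 calls in every setting run say nothing of stability. The causes were not tested.

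Log2 fold changes that turned sign had not passed the test. They were Akr1a1 in females only (0.12) and with the mitochondrial share (0.19), Akr1b8 with sex (0.051), in females only (0.25), with the mitochondrial share (0.57) and with 1 mouse left out (-0.31 to 0.046), and Hnf4a with edgeR and RLE (0.0007), with the block (0.024) and with 1 mouse left out (-0.032 to 0.0495). Nr1i2 was -0.0046 with the block and -0.0046 to 0.13 with 1 mouse left out. Kcnab3 was 0.0064 with a pseudocount of 5, 0.015 with sex, 0.13 in females only, 0.20 with edgeR and TMM, 0.21 with edgeR and RLE, 0.21 with DESeq2, 0.96 with the mitochondrial share and -0.48 to 0.37 with 1 mouse left out. The difference in log2 ratio of Akr1b7 to Akr1b10 was -0.14 with a pseudocount of 5 and -0.30 to 0.40 with 1 mouse left out, and that of Akr1c13 to Akr1c19 -0.10 to 0.25.

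The replicate numbers do not pair the mice, which are different animals. Same-numbered mice correlated at -0.175, 0.066, 0.0465 and 0.142, and 3 of 8 mice correlated best with their own number. With a replicate block, which drops ApcMin/+ replicate 5, 1 member and 473 of all genes were called. In that fit 5 members had an adjusted p under 0.05, against 14.4% of all genes. The separate alternative for members below the filter did not apply, since all 10 passed. Akr1b7 had the fewest reads of the members, 5 to 22 a mouse.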

Other observations

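Likeness was ranked among all genes tested with the other members left out, so likeness between members is not given. The genes whose deviations from the genotype means over the 9 mice were most like those of Akr1b8, the most abundant Akr1b gene, were Abcd3, a peroxisomal membrane transporter (Pearson r = 0.97), Rnase4, a secreted ribonuclease (0.97), and Acp6, a mitochondrial phosphatase (0.96). For Akr1c14, the Akr1c gene with the highest mean count, they were RP23-225H6.1 (0.97), Sv2c, a vesicle protein (0.96), and Nars2, the mitochondrial asparaginyl-tRNA synthetase (0.95). These genes were the top of 14410 tested, members aside, over the same 9 libraries, which also share depth and the order of the sexes. The values are given as a description.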
